A study of Homo sapiens with 6 samples.

Results

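The genes described here encode the actin filament, the proteins that bind and contract it, and the transcription factor pair that reads its state. The set holds 35 genes of the 63241 in the deposited table, chosen by gene symbol, and all 35 symbols were found, each in 1 row. The RNA came from T24, a long-established line grown from a human bladder carcinoma. In the siNC group wild-type T24 cells had received a control small interfering RNA, and in the siUSP43 group T24 cells had received one against USP43, which encodes a deubiquitinating enzyme, with 3 libraries in each group. The series asked how USP43 bears on lipid metabolism in this cancer. All 6 samples were transfected and carry the same batch label. The labels give neither the time after transfection nor the duplex sequences, and leave unsaid whether 1 duplex or several were used in siUSP43, so effects of the loss of USP43 and of a duplex on other transcripts cannot be told apart. Nothing in them marks the replicates as separate cultures, so a p-value here speaks of the spread among these 6 samples, and that spread may be technical only.

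Actin exists as monomers and as filaments. Monomeric actin binds the coactivators MRTFA and MRTFB and holds them in the cytoplasm, and when monomers are drawn into filaments the coactivators enter the nucleus and act with serum response factor (SRF). SRF binds a short DNA element, the CArG box, and many of its targets encode the filament itself: actins, tropomyosins, transgelin, calponins, myosin light chains and vinculin. In smooth muscle and myofibroblasts these targets build the contractile apparatus, and in epithelial cancer cells they build stress fibres and focal adhesions.

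CArG boxes close to the start sites of member genes are shown first, since they are the DNA element through which SRF is known to act. RefSeq promoter sequences (build GRCh38.p14, 250 bases before to 50 after a start site) matched 32 of the 35 members by symbol. ACTB, TAGLN and MYL9 had no match. An exact CArG box, CC and GG around a core of 6 bases that are each A or T, a pattern that reads alike on both strands, was in the window of 8 of these 32 members (25%). Of 8587 tested genes with a promoter sequence 129 held such a box (1.5%), as did 1.6% of all RefSeq genes with a promoter. Many members are in the set as known SRF targets, so the larger share follows in part from how the set was composed. Exact boxes were found in the windows of ACTG1, TPM4, CNN2, ACTN1, FLNA, MYLK, FHL2 and SRF. The MYLK window with the box (chr3:123620499-123620798, minus strand) belongs to a start site inside the gene. The gene spans 123610049 to 123884332, and this start lies near its 3′ end. ACTA2 held 2 boxes with 1 base other than A or T in the core. A search that allowed 1 such base matched 13 of the 32 members and 9.5% of tested genes. Capitals mark the box, and each line is written 5′ to 3′ on the gene's own strand.
ACTA2, distal box, chr10:88952875-88952904, minus strand: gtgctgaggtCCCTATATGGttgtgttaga
ACTA2, proximal box, chr10:88952825-88952854, minus strand: tgtctttgctCCTTGTTTGGgaagcaagtg
ACTG1, chr17:81512874-81512903, minus strand: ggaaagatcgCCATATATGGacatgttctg
TPM4, chr19:16067355-16067384, plus strand: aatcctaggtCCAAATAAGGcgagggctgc
CNN2, chr19:1026509-1026538, plus strand: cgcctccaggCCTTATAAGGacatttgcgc
ACTN1, chr14:68977718-68977747, minus strand: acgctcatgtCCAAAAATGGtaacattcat
FLNA, chrX:154374709-154374738, minus strand: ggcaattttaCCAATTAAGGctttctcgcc
FHL2, upstream start, chr2:105438595-105438624, minus strand: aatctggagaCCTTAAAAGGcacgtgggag
FHL2, downstream start, chr2:105399091-105399120, minus strand: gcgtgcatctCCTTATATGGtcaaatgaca
SRF, first box, chr6:43171229-43171258, plus strand: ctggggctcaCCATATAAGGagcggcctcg
SRF, second box, chr6:43171249-43171278, plus strand: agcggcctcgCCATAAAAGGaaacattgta
A match is a description of the letters and not evidence of binding, and binding was not analysed here.

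Library totals ran from 21430574 to 25577200 gene counts. USP43 was at 2.36, 2.09 and 2.08 FPKM (fragments scaled to exonic size and library total) in siNC and at 1.02, 0.67 and 0.80 in siUSP43, a log2 fold change of -1.40 (SE 0.14; -0.80 with limma on log2(FPKM + 1)). Of 6 epithelial markers, KRT7 fell from a mean of 235.9 to 183.8 FPKM (log2 fold change -0.38, adjusted p = 2.50e-05) and KRT19 from 12.03 to 9.37 (-0.38, adjusted p = 0.000429). KRT8 and KRT18 had means of 88.03 and 197.5 FPKM in siNC and 96.93 and 215.8 in siUSP43 and did not pass. EPCAM, at 0.587 and 1.24 FPKM, and CDH1, the epithelial cadherin, at 0.01 and 0, were too low to be tested. The part of these markers in the members' changes was not tested. No fibroblast, endothelial or leukocyte marker looked up reached a mean of 1 FPKM over the 6 libraries, and their summed levels lay at 1.12 to 1.52, 0.11 to 0.17 and 0.93 to 1.08 FPKM in siNC and at 1.20 to 1.25, 0.06 to 0.10 and 0.41 to 0.56 FPKM in siUSP43. In bulk RNA fewer cells expressing a gene and less of its RNA per cell cannot be told apart.

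Most actin filament genes were higher in siUSP43. Of the 33 members with a mean of at least 1 FPKM over the 6 libraries, 22 rose, 1 fell and 10 did not pass (edgeR quasi-likelihood test, Benjamini-Hochberg adjusted p under 0.05 over all tested genes). Of all 11417 tested genes 28.0% rose and 28.1% fell, 56.1% in either direction. The median log2 fold change was 0.28 over the tested members and -0.01 over all tested genes. The increases spanned a wide range of size. The highest were those of ACTA2 (5.02-fold), TAGLN (3.45-fold), TPM4 (3.38-fold) and NEXN (3.31-fold), and FHL2 followed at 2.44-fold, so that 5 members rose at least 2-fold, as did 1.39% of all tested genes. Another 9 rose by 1.25- to 2-fold and 8 by less. In 22 tested members every siUSP43 value lay above every siNC value and in 2 every value lay below, against 32.5% and 29.6% of all tested genes. ACTA2 passed the filter on low values through its siUSP43 level alone, so it had to differ, and without it 21 of 32 members rose. ACTA2 is also counted among the 5 that rose at least 2-fold and the 22 with every siUSP43 value above. CNN1 and MYLK lay below the filter. The set was assembled with earlier results of these data known, so these counts describe it and do not set it apart.

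**Figure D1:**
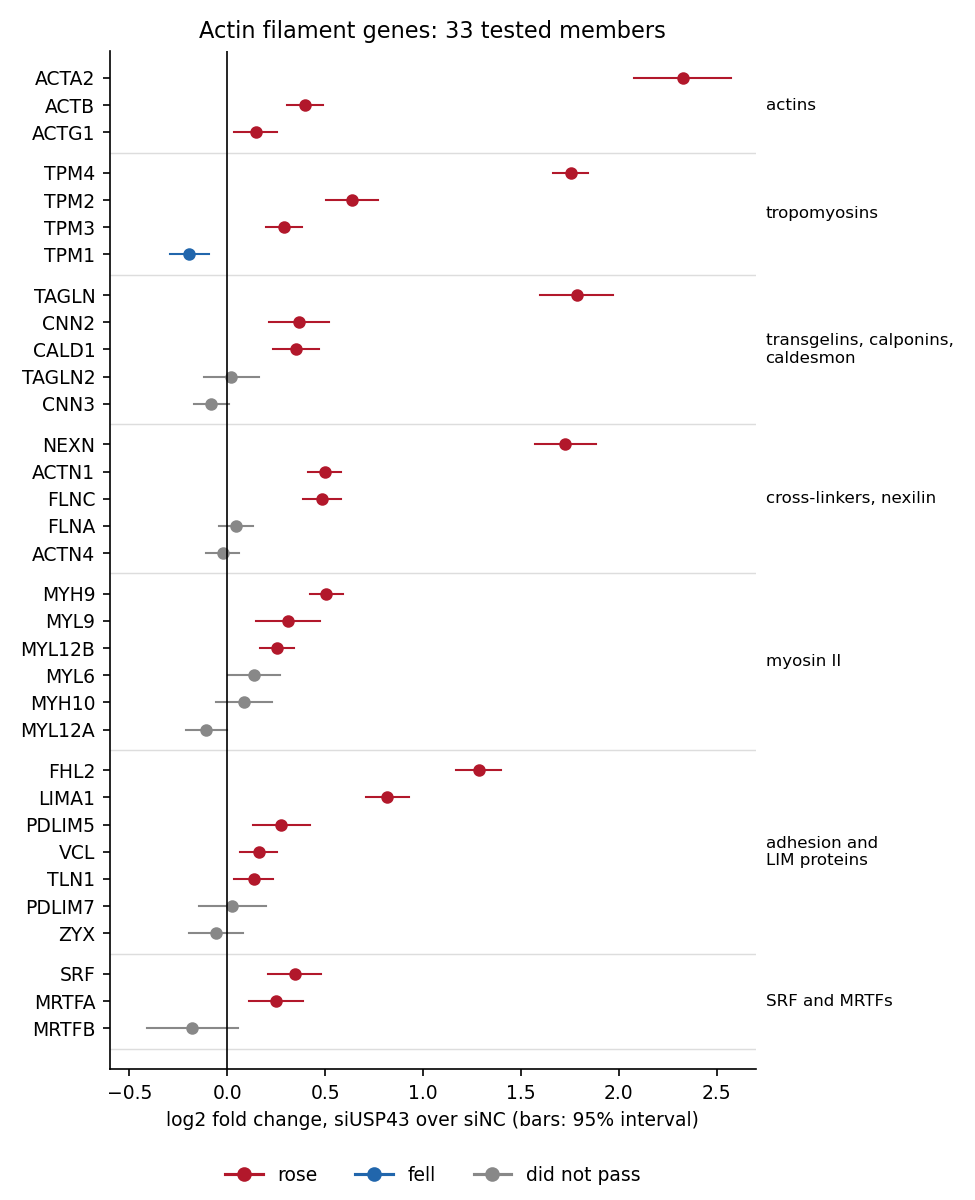
Log2 fold change of siUSP43 over siNC (x axis) for the 33 tested members, grouped by the role of the protein, with 95% intervals from the edgeR fit as bars. ACTA2, TAGLN, TPM4, NEXN and FHL2 lie beyond a log2 fold change of 1, and TPM1 is the single member that fell.

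All 3 actin genes rose, by very different amounts. ACTA2 (ENSG00000107796, GRCh38 chromosome 10, 88935074 to 88991339, minus strand), smooth muscle alpha-actin, was at 0.71, 0.86 and 0.63 FPKM in siNC and at 3.88, 3.88 and 3.41 in siUSP43. The groups were far apart, with 104 to 141 counts against 552 to 653. Its log2 fold change was 2.33 (SE 0.11, adjusted p = 2.50e-08), rank 4 of all tested genes from the highest. It passed the filter through siUSP43 alone, so neither this p nor this rank is independent of the filter. ACTB (chromosome 7, 5526409 to 5563902, minus strand), cytoplasmic beta-actin, was at 623, 634 and 629 FPKM in siNC and at 851, 866 and 796 in siUSP43, a log2 fold change of 0.40 (SE 0.04, adjusted p = 1.06e-05). ACTG1 (chromosome 17, 81509413 to 81523847, minus strand), cytoplasmic gamma-actin, was at 757, 775 and 796 FPKM in siNC and at 880, 915 and 807 in siUSP43. Its siNC replicate 3 and siUSP43 replicate 3 lay close together, and its log2 fold change was 0.14 (SE 0.05, adjusted p = 0.0288).

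The ratio of ACTB to ACTG1 FPKM went from 0.811 ± 0.0174 to 0.967 ± 0.0204 (SD, n = 3 each; exact two-sided permutation p = 0.1, the smallest that 3 against 3 allows). Summed actin FPKM went from 1405 ± 23.1 to 1709 ± 91.6 (SD, n = 3 each, exact permutation p = 0.1). ACTA2 made up 0.0522% of this sum in siNC and 0.218% in siUSP43, so that the gene with the highest fold change added little to total actin mRNA. FPKM is scaled here to the table's exonic size of each gene, which joins the exons of all its transcripts, so levels between genes are approximate. Actin genes are close in sequence and how reads shared between them were assigned is not given in the sources used here. ACTA2 shares 380 of its 2976 exonic bases in GENCODE 29 with FAS on the other strand and spans part of STAMBPL1. FAS was at 3.94, 3.75 and 3.54 FPKM in siNC and 3.30, 3.30 and 3.67 in siUSP43. It was called lower (log2 fold change -0.15, adjusted p = 0.0453). STAMBPL1 was at 5.94, 5.79 and 5.92 FPKM against 5.65, 5.60 and 5.49 and did not pass (-0.09). ACTA2 also shares 516 exonic bases with ACTA2-AS1 on the other strand, which had at most 9 counts in a library. The part of overlapping reads in the ACTA2 values was not tested. ACTA2 had a log2 fold change of 1.45 with limma on log2(FPKM + 1), and the call of ACTG1 ended under upper quartile scaling (adjusted p = 0.127) and without siNC replicate 1 (adjusted p = 0.114), siNC replicate 2 (0.0875), siUSP43 replicate 1 (0.0997) or siUSP43 replicate 2 (0.0768).

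**Figure D2:**
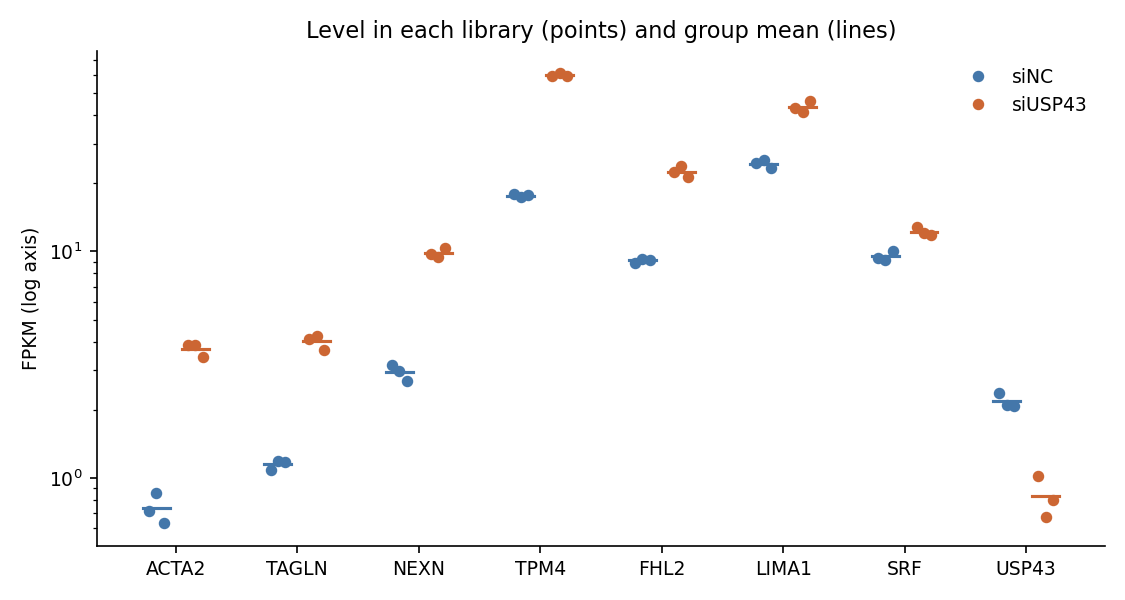
FPKM on a log axis (y) of 7 members and of USP43 (x) in each of the 3 siNC and 3 siUSP43 libraries (points), with the group mean as a line. For each member shown the siUSP43 points lie above all siNC points, and for USP43 they lie below.

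Tropomyosins, coiled-coil dimers that lie along the filament and set which other proteins can bind it, changed in composition. TPM4 (chromosome 19, 16067021 to 16103002, plus strand), one of the exact CArG box genes shown above, was at 17.9, 17.4 and 17.7 FPKM in siNC and at 59.7, 61.3 and 59.9 in siUSP43. The replicates of each group lay close together and the groups far apart, and its log2 fold change of 1.75 (SE 0.04, adjusted p = 1.29e-10) had the lowest adjusted p of the members. TPM2 (chromosome 9, 35681992 to 35690056, minus strand) was at 82.7, 81.6 and 89.7 FPKM in siNC and at 135, 142 and 123 in siUSP43 (log2 fold change 0.64, SE 0.06). TPM3 was at 44.1, 43.8 and 44.2 FPKM against 53.1, 56.5 and 53.7 (log2 fold change 0.29, SE 0.04). TPM1 went the other way. Its levels of 9.03, 9.37 and 9.23 FPKM in siNC were all above the 7.88, 8.23 and 8.32 in siUSP43, and it fell by 0.19 on the log2 scale (SE 0.05, adjusted p = 0.00317).

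Summed tropomyosin FPKM was 155.5 ± 4.67 in siNC and 256 ± 11.5 in siUSP43 (SD, n = 3 each, exact two-sided permutation p = 0.1). The share of TPM4 in this sum was 11.4% ± 0.324 in siNC and 23.6% ± 0.803 in siUSP43, while TPM3 went from 28.3% ± 0.706 to 21.3% ± 0.606 and TPM1 from 5.93% ± 0.216 to 3.19% ± 0.186 (SD, n = 3 each, exact permutation p = 0.1 for each share). TPM2 stayed the most abundant by this measure, at 54.4% ± 1.17 and 52.0% ± 1.54. The ratio of TPM4 to TPM1 was 1.98, 1.86 and 1.92 in siNC and 7.57, 7.45 and 7.20 in siUSP43. TPM1, TPM3 and TPM4 have long exonic sizes in the table (14700, 15130 and 12375 bases against 3183 for TPM2), which lowers their FPKM relative to TPM2. Each tropomyosin gene also makes several isoforms, which gene-level counts do not separate.

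**Figure D3:**
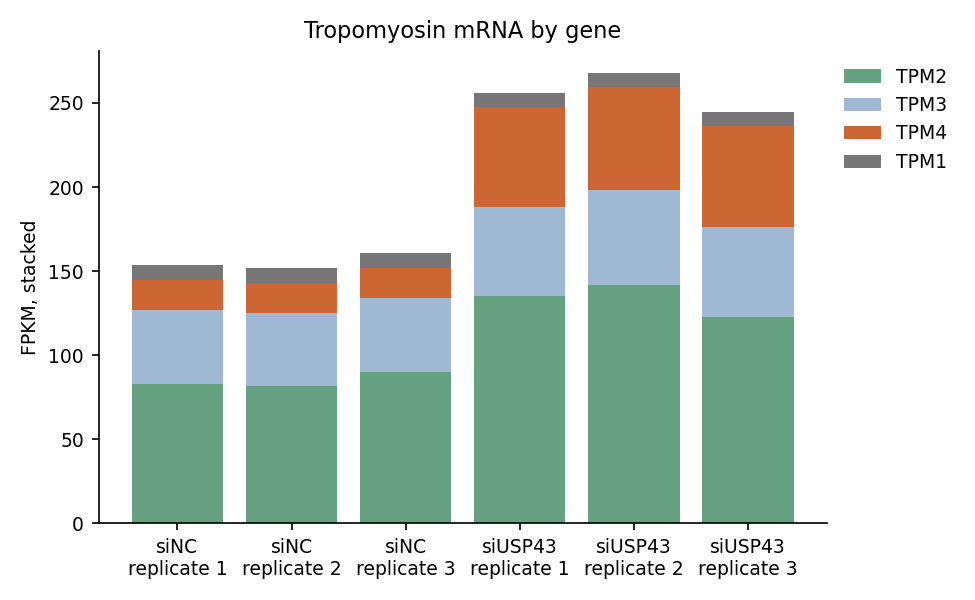
FPKM of the 4 tropomyosin genes stacked for each library (x axis: 3 siNC and 3 siUSP43 replicates). The TPM4 segment goes from 17.4 to 17.9 FPKM in siNC to 59.7 to 61.3 in siUSP43, and the TPM1 segment goes from 9.03 to 9.37 to 7.88 to 8.32.

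Transgelins, calponins and caldesmon bind along the filament and restrain or shape its contraction. TAGLN (chromosome 11, 117199370 to 117207464, plus strand), transgelin or SM22-alpha and a classical SRF target of smooth muscle, was at 1.08, 1.19 and 1.18 FPKM in siNC and at 4.12, 4.25 and 3.67 in siUSP43. That is 202 to 228 counts against 704 to 806, and a log2 fold change of 1.78 (SE 0.09, adjusted p = 2.27e-08). TAGLN shares 446 of its 3917 exonic bases in GENCODE 29 with PCSK7 on the other strand, so the origin of part of its reads is uncertain. PCSK7 was at 0.80, 0.77 and 0.76 FPKM in siNC and 0.77, 0.67 and 0.65 in siUSP43. The lowest log2 fold change of TAGLN over the alternatives was 1.22. Its paralogue TAGLN2, much more abundant at 152, 152 and 164 FPKM in siNC and 160, 174 and 146 in siUSP43, did not pass, with overlapping groups and a 95% interval of the log2 fold change from -0.12 to 0.16. CNN2, calponin 2, was at 61.4, 65.4 and 65.8 FPKM against 84.8, 92.2 and 74.1 (log2 fold change 0.37, SE 0.07). CALD1, caldesmon, was at 12.3, 11.7 and 11.6 FPKM against 15.2, 14.4 and 16.3 (0.35, SE 0.05). CNN3, calponin 3, had slightly lower values in all siUSP43 libraries, 81.1, 80.1 and 81.0 against 83.3, 86.9 and 83.1 FPKM, and did not pass (log2 fold change -0.08, 95% interval -0.17 to 0.01), but under upper quartile scaling it was called lower (-0.12, adjusted p = 0.0309). CNN1, the calponin of differentiated smooth muscle, had 11, 6 and 3 counts in siNC and 19, 16 and 8 in siUSP43, and in a fit without the filter its log2 fold change of 1.12 did not pass (SE 0.48, adjusted p = 0.0764).

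Most other smooth muscle genes were near 0 in both groups. Of 12 smooth muscle markers looked up, SMTN (smoothelin) and SYNM (synemin) passed the filter, and both rose, with log2 fold changes of 0.30 and 0.56. The other 10, among them MYH11 (smooth muscle myosin), DES (desmin), LMOD1 (leiomodin 1) and MYOCD (myocardin, the muscle-restricted SRF cofactor), had means of at most 0.0967 FPKM in each group, and CASQ2 and KCNMB1 were listed at 0 in all 6 libraries. Summed over the 12, levels were 11.2 to 11.6 FPKM in siNC and 13.2 to 14.98 in siUSP43. Most of each sum was SMTN, with means of 9.77 and 12.15 FPKM, so the sum says little of the other markers.

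Among the cross-linkers, one paralogue of each pair was higher and the other did not pass. ACTN1 (chromosome 14, 68874128 to 68979440, minus strand), alpha-actinin 1, was at 28.2, 28.7 and 27.9 FPKM in siNC and at 40.8, 39.6 and 40.7 in siUSP43, a log2 fold change of 0.50 (SE 0.04, adjusted p = 8.83e-07). ACTN4, the more abundant alpha-actinin, was at 79.0, 79.0 and 77.4 against 78.3, 76.4 and 79.5 FPKM, with overlapping groups and a 95% interval of -0.11 to 0.06. The ratio of ACTN1 to ACTN4 FPKM went from 0.360 ± 0.00318 to 0.517 ± 0.00492 (SD, n = 3 each, exact two-sided permutation p = 0.1). FLNC, filamin C, was at 31.1, 32.7 and 31.0 FPKM in siNC and at 44.2, 43.5 and 46.6 in siUSP43 (log2 fold change 0.49, SE 0.04). FLNA, filamin A, was at 217, 223 and 213 against 229, 219 and 232 FPKM and did not pass (95% interval -0.04 to 0.13), and its promoter window is among those with an exact CArG box. NEXN (chromosome 1, 77888513 to 77943895, plus strand), nexilin, a filament-binding protein of adhesions and muscle Z-discs, was at 3.15, 2.97 and 2.69 FPKM in siNC and at 9.75, 9.46 and 10.3 in siUSP43. The siUSP43 libraries held 1061 to 1385 NEXN counts against 350 to 400 in siNC, and its log2 fold change was 1.73 (SE 0.07, adjusted p = 7.66e-09).

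Nonmuscle myosin II, the motor that contracts stress fibres, is built of heavy chains and of regulatory and essential light chains. MYH9 (chromosome 22, 36281280 to 36388010, minus strand), the IIA heavy chain, was at 86.9, 87.5 and 88.8 FPKM in siNC and at 124, 127 and 127 in siUSP43, a log2 fold change of 0.51 (SE 0.04, adjusted p = 6.84e-07). MYH10, the IIB heavy chain, was at 4.86, 5.01 and 4.82 FPKM against 4.90, 4.95 and 5.91, and its groups overlapped (95% interval -0.06 to 0.23). MYH9 made up 94.7% ± 0.133 of the summed FPKM of these heavy chains in siNC and 96.0% ± 0.375 in siUSP43 (SD, n = 3 each, exact permutation p = 0.1). The light chains had smaller log2 fold changes than MYH9. MYL9, a regulatory light chain and SRF target, was at 31.3, 32.4 and 33.9 FPKM against 41.1, 45.3 and 36.1 (log2 fold change 0.31, SE 0.08, adjusted p = 0.00413). MYL12B was at 259, 254 and 255 FPKM against 303, 315 and 307 (0.25, SE 0.04).

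MYL12A, the neighbour and near copy of MYL12B, was at 151, 145 and 157 FPKM in siNC and 142, 147 and 136 in siUSP43 and did not pass (log2 fold change -0.11, 95% interval -0.21 to 0.00). It was called lower under upper quartile scaling (-0.14, adjusted p = 0.0352) and without siUSP43 replicate 2 (-0.14, adjusted p = 0.0331). Reads shared by MYL12A and MYL12B may have been divided between them, so the opposite signs are uncertain. MYL6, the essential light chain, was at 124, 123 and 132 FPKM against 137, 154 and 132 and did not pass (0.13, adjusted p = 0.0776), but was called higher without siUSP43 replicate 3 (0.18, adjusted p = 0.00921) and without a filter (0.14, adjusted p = 0.0144). MYL6 overlaps SMARCC2 on the other strand and MYL6B on its own, and MYL6B fell by 0.37 on the log2 scale. MYLK, the kinase that switches on the regulatory light chains, stayed low, at 0.19, 0.16 and 0.17 FPKM against 0.31, 0.25 and 0.28, and in a fit without the filter it rose by 0.71 on the log2 scale (SE 0.12, adjusted p = 9.62e-08).

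Of the adhesion and LIM domain members, FHL2 and LIMA1 changed most. FHL2 (chromosome 2, 105357712 to 105438513, minus strand), a LIM-only protein that shuttles between adhesions and the nucleus and is itself a known SRF target, was at 8.94, 9.31 and 9.16 FPKM in siNC and at 22.4, 23.8 and 21.3 in siUSP43, a log2 fold change of 1.28 (SE 0.05, adjusted p = 7.66e-09). LIMA1 (chromosome 12, 50175788 to 50283520, minus strand), which encodes EPLIN, a protein that bundles and stabilises filaments, was at 24.6, 25.4 and 23.3 against 43.3, 41.4 and 46.1 FPKM (0.82, SE 0.05). PDLIM5 was at 8.74, 8.38 and 7.99 FPKM in siNC and 10.4, 9.19 and 11.2 in siUSP43 (0.28, SE 0.07). VCL, vinculin, was at 61.0, 60.0 and 58.9 against 67.0, 65.3 and 71.1 FPKM (0.16, SE 0.04), and TLN1, talin 1, at 39.7, 40.9 and 38.6 against 43.3, 42.4 and 46.6 (0.13, SE 0.05, adjusted p = 0.0272). The gaps between the groups of VCL and TLN1 were small beside those of FHL2 and LIMA1.

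ZYX, zyxin, was at 63.4, 65.5 and 69.9 FPKM in siNC and 65.9, 68.7 and 58.7 in siUSP43, and PDLIM7 at 21.2, 22.3 and 22.9 against 24.2, 24.6 and 19.6. For both, siUSP43 replicate 3 was the lowest of the 6 libraries, and neither passed (95% intervals -0.20 to 0.08 and -0.15 to 0.20). Without siUSP43 replicate 3 PDLIM7 was called higher (0.12, adjusted p = 0.0356). The call of TLN1 ended under upper quartile scaling (adjusted p = 0.078) and without siNC replicate 1 (adjusted p = 0.0867), siNC replicate 2 (0.0508), siNC replicate 3 (0.098) or siUSP43 replicate 3 (0.0505). VCL shares 1109 of its 9992 exonic bases with AP3M1 on the other strand, which rose by 0.21 on the log2 scale, so the origin of part of its reads is uncertain.

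SRF and MRTFA were modestly higher in siUSP43, and MRTFB did not pass. SRF (chromosome 6, 43171269 to 43181506, plus strand), whose promoter window holds the pair of CArG boxes shown above, was at 9.40, 9.13 and 10.1 FPKM in siNC and at 12.8, 12.1 and 11.8 in siUSP43, a log2 fold change of 0.35 (SE 0.06, adjusted p = 5.41e-04). MRTFA was at 4.64, 4.98 and 4.78 against 6.01, 5.88 and 5.43 FPKM (0.25, SE 0.06, adjusted p = 0.00531). MRTFB was at 1.88, 2.09 and 1.57 against 1.61, 1.45 and 1.88 FPKM. Its groups overlapped and it did not pass (log2 fold change -0.18, 95% interval -0.41 to 0.06), but it was called lower without siNC replicate 3 (-0.28, adjusted p = 0.0384) or siUSP43 replicate 3 (-0.28, adjusted p = 0.0212). These are mRNA levels, and the location of the coactivators, which is the known point of control, was not analysed here.

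Exact CArG boxes were found in members with large, small and no called change. Of the 19 members that rose and have a promoter sequence, 6 held an exact box (31.6%), and of the 13 that did not rise or were not tested, 2 did (15.4%). MYLK, which was not tested, is among the matches of the second group, through a start site near the 3′ end of the gene. With at most 1 mismatch allowed in the core the shares were close, 42.1% (8 members) and 38.5% (5 members). TPM4 and FHL2 held exact boxes and rose over 2-fold, ACTG1 held one and rose 1.11-fold, and FLNA held one and did not pass. NEXN rose 3.31-fold with no exact box in its window, which says only that these letters are not in the 300 bases searched. Across the 33 tested members the log2 fold change had a Pearson correlation of 0.02 with log2 exonic size (Spearman 0.09). With log2 siNC FPKM the Pearson correlation was -0.52 (Spearman -0.31). The siNC values enter both sides of this second correlation, which by itself favours a negative sign. The 33 members also include ACTA2, which passed the filter through siUSP43 alone, so no trend with siNC level is drawn from it. The correlations with exonic size and with siNC level are descriptions over genes measured in the same libraries.

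Some ratios between libraries of a group varied with exonic size among the members. The log2 ratio of siUSP43 replicate 3 to replicate 2 had a median of -0.19 over the 14 tested members with an exonic size under 5000 bases and of 0.06 over the 19 longer ones. Its Pearson correlation with log2 exonic size was 0.64 over the 33 members and 0.19 over all tested genes. Replicate 3 against replicate 1 gave 0.66, and siUSP43 replicate 2 against replicate 1 gave -0.41. In siNC, replicate 3 gave -0.40 against replicate 1 and -0.36 against replicate 2, while replicate 2 against replicate 1 gave 0.08, with medians of 0.01 and 0.04 in the shorter and the longer members. Members with short exonic size (CNN2, MYL9, TAGLN2, ZYX, PDLIM7) were among those with their lowest siUSP43 value in replicate 3, and this spread is part of the SE given for them. Its part in the calls was not tested beyond leaving out each library in turn.

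**Figure D4:**
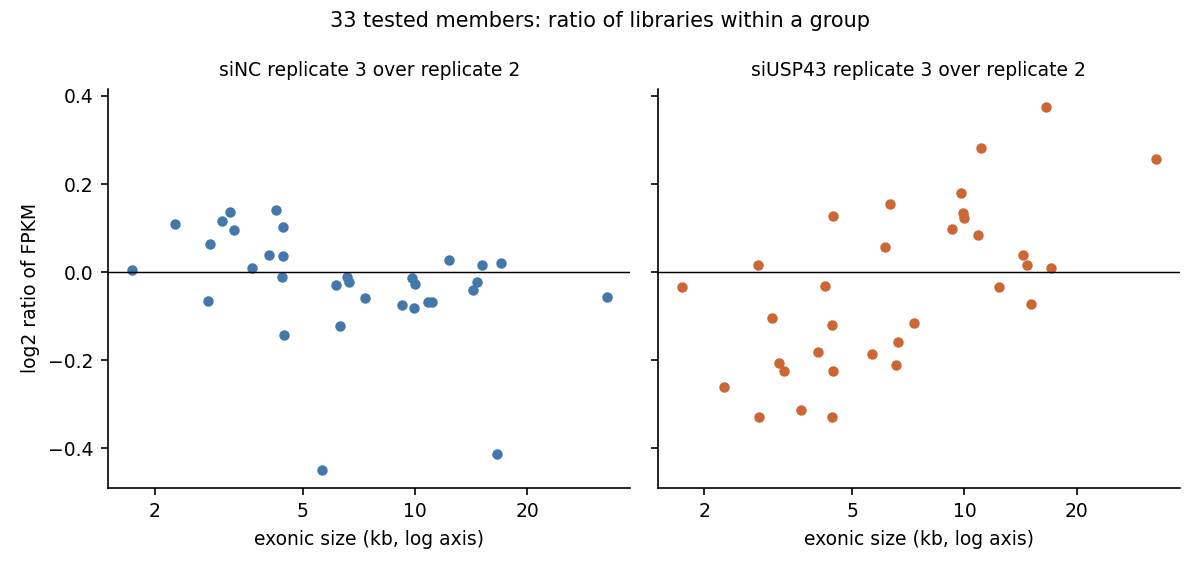
Log2 ratio of FPKM between replicates 3 and 2 (y axis) against exonic size in kb on a log axis, for the 33 tested members in siNC and in siUSP43. In siUSP43 short genes lie mostly below 0 and long genes mostly above, while in siNC the slope is weaker and of the opposite sign.

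Genes around the filament system that are not members moved in both directions. Among 19 tested genes from a list of other SRF targets, 13 rose and 4 fell (68.4% and 21.1%, against 28.0% and 28.1% of all tested genes), with a median log2 fold change of 0.43. TUFT1 (tuftelin 1) rose by 1.59, ANKRD1 (ankyrin repeat domain protein 1, also a YAP target) by 1.52 and CCN2 (connective tissue growth factor, also a YAP target) by 1.45 on the log2 scale. The nucleation and elongation list (Arp2/3 complex, WAVE complex, formins) held 15 genes that rose and 10 that fell of 34 tested. CYFIP2, a WAVE complex subunit, fell by 1.44 and FHOD1, a formin, by 0.62, while DIAPH3, a formin, and CTTN, cortactin, rose by 0.76 and 0.62.

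Of 27 tested filament turnover genes 8 rose and 8 fell, 29.6% each way and so near the 28.0% and 28.1% of all tested genes, with a median log2 fold change of -0.03. The 4 with the most change all fell: TMOD1, a pointed-end capper, by 1.49, CAPZA1, a barbed-end capping subunit, by 0.91, GSN, the severing protein gelsolin, by 0.76 and SSH3, a cofilin phosphatase, by 0.54 on the log2 scale. CAPZA1 went from 113 ± 1.79 to 60.8 ± 2.30 FPKM (SD, n = 3 each).

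Among the remaining adhesion and LIM genes 9 rose and 10 fell of 30, shares of 30% and 33.3% that also lie near those of all tested genes. In this list SYNPO (synaptopodin) was at -1.25 against LPP at 1.24 and AJUBA at 0.75, LPP and AJUBA both being LIM proteins of the zyxin family. Among other filament-binding proteins 10 rose and 10 fell of 23, with ABLIM3 at 0.79, SPTAN1 (alpha-spectrin) at 0.65, MICAL2, an actin-oxidising enzyme known to act on MRTF, at 0.61 and ANLN (anillin) at 0.59. The shares of genes that rose were 44.1%, 29.6%, 30% and 43.5% in the nucleation, turnover, adhesion and filament-binding lists, 28.0% among all tested genes and 66.7% among the tested members. No test was made of the difference between lists.

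**Figure D5:**
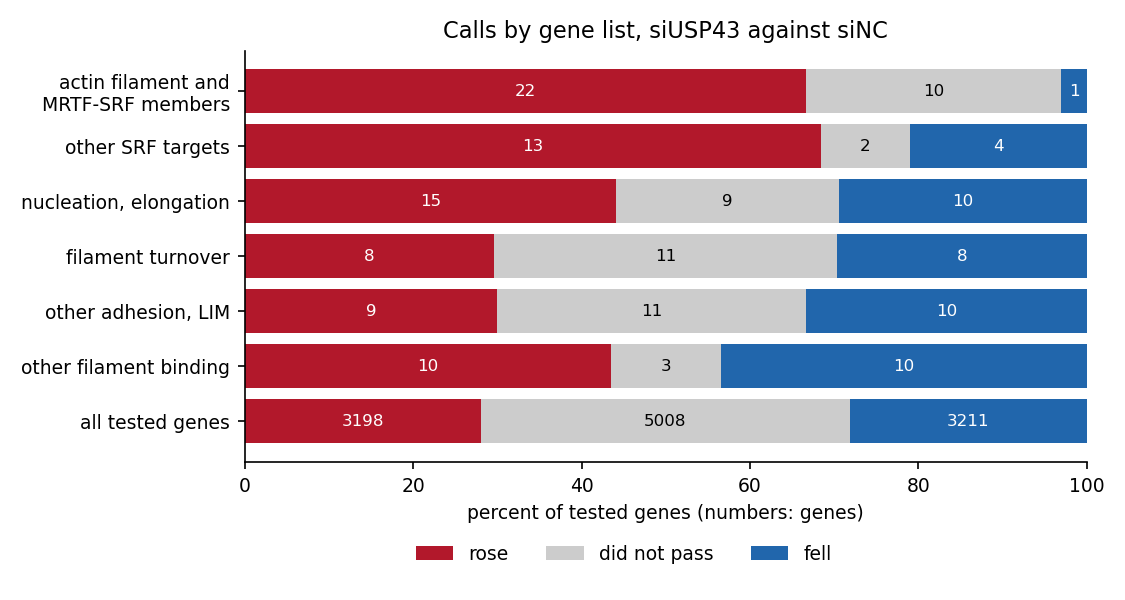
Percent of tested genes that rose, did not pass or fell in siUSP43 (x axis) for the members, 5 lists of related genes and all tested genes (y axis), with the number of genes in each segment. The members and the other SRF targets show 22 and 13 genes that rose, against 1 and 4 that fell, while turnover genes show 8 and 8.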

How the data were processed

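RNA sequencing of T24 cells gave 1 deposited table with raw gene counts and FPKM for 6 libraries (3 siNC, 3 siUSP43), per the file headers. The submitters' processing notes name cutadapt 2.6, HISAT2 2.2.1 and build GRCh38. The counter, annotation release, strand setting and handling of multiply mapped reads are not given in the sources used here, so reads of genes that overlap on opposite strands cannot be told apart. The FPKM values deposited by the authors imply a library total that is 1.18 to 1.191 times the sum over genes.

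The counts were tested with edgeR 4.0.16 in R 4.3.3 (quasi-likelihood, TMM, group as the only term) on 11417 genes with a mean of at least 1 FPKM, with USP43 kept whatever its level. A gene was said to rise or fall when its Benjamini-Hochberg adjusted two-sided p was under 0.05. Intervals are 95% intervals from that fit. Sums, shares and ratios of FPKM had an exact permutation test, two-sided. Alternatives were other scalings, filters, DESeq2 1.42.0, limma 3.58.1 on log2(FPKM + 1) and log2(FPKM + 0.1), a replicate block and each library left out. The test was checked on simulated counts in which only a small part of the genes was changed. That check does not cover changes in as many genes as were called here. Within a group no pair of libraries was as alike as counting noise (chi-square per degree of freedom 2.28 to 15).

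All 35 members are named, with USP43, the 4 most changed genes that passed in each related list (some of these and 1 list are not reported here), and overlapping genes that were tested where they bear on a value. Members and lists were chosen with earlier results of these data known.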

Additional observations from a re-analysis of the deposited data

How the results depend on the processing

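Under 15 alternatives 19 to 24 members rose, the lowest with a replicate block and the highest without a filter on low values (24 of 35 tested). Members that fell numbered 3 under upper quartile scaling and 1 to 2 when a library was left out, since CNN3, MYL12A or MRTFB then passed. Of the 33 tested members 22 kept their direction and call throughout. Calls ended in at least 1 alternative for ACTG1, VCL and TLN1. Log2 fold changes near 0 changed sign in some settings. Upper quartile scaling gave TAGLN2 -0.013 and PDLIM7 -0.0096. Over left-out libraries TAGLN2 ran from -0.046 to 0.086 (negative without siUSP43 replicate 2), MYH10 from -0.0076 to 0.14 and ZYX from -0.11 to 0.0044 (both changed sign without siUSP43 replicate 3), PDLIM7 from -0.035 to 0.12, and the siUSP43 to siNC ratio of the share of MYL6 among light chains from 0.971 to 1.01. Causes were not tested. Replicate numbers did not pair the samples, as deviations of same-numbered libraries correlated at -0.01, -0.13 and -0.26. With a replicate block ACTG1 (0.14, adjusted p = 0.0939), VCL (0.16, 0.0508) and TLN1 (0.13, 0.106) did not pass. A CArG box with at most 1 mismatch in the core was in 13 members and 816 tested genes. At 3 libraries a group, log2 fold changes of 0.13 lay on both sides of the threshold (TLN1 passed, MYL6 did not).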
